A study of Petunia x hybrida with 7 samples.

Results

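The core regions described here are the places on the 7 long scaffolds of the petunia assembly where PhDEF peaks were listed in petals of all 3 genotypes. The peaks of the 3 deposited lists were pooled, peaks sharing at least 1 bp were merged into regions, and a region was kept when it held at least 1 peak of each list. This gave 814 core regions among 5073 merged regions, or 16.0% (95% Clopper-Pearson interval 15.0 to 17.1%). The members were thus chosen by the peak calls themselves, so the strength of their peaks is given as a description and without a test.

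PhDEF is the petunia counterpart of DEFICIENS, a class B MADS-domain transcription factor. Class B proteins of the DEFICIENS and GLOBOSA types bind DNA as heterodimers, recognise short A- and T-rich elements called CArG boxes, and are needed for petal and stamen identity. A petal is built from an epidermis and an inner mesophyll, and a plant in which these layers differ in genotype is a periclinal chimera.

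The chromatin came from whole petals, tube and limb, taken at flower stage 8 from cultivar R27 of Petunia x hybrida. The wico petals had a wild-type epidermis over a phdef mutant mesophyll, the star petals had a phdef mutant epidermis over a wild-type mesophyll, and the wild-type petals carried PhDEF in both layers. Each genotype had 2 libraries of chromatin precipitated with an antibody against PhDEF, and 1 input library came from the wild type. The question put to the core regions is how alike PhDEF occupancy was when the protein was present in the epidermis, in the mesophyll or in both. Whole petals were used, so fewer nuclei holding PhDEF and less binding in each nucleus cannot be told apart.

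The authors combined both libraries of a genotype into 1 list, so membership has no replicate lists behind it and no test between genotypes was made of it. The lists hold no read counts, and the depth behind them is unknown. Every listed peak carries a signal value for each of its 2 replicates, in a first and a second replicate column that the files do not tie to a library. The scale of that signal is not given in the sources used here, so strength is expressed as the percentile of a peak inside its own list, where 100 is the strongest peak. No genome of this assembly was used, so genes, bases and CArG boxes at the core regions were not analysed here. Intervals of shares and medians are at 95% and cover counting error only.

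Core regions made up a different share of each list. They held 816 of 3692 wico peaks on the long scaffolds, or 22.1% (20.8 to 23.5%), 817 of 1781 star peaks, or 45.9% (43.5 to 48.2%), and 815 of 2687 wild-type peaks, or 30.3% (28.6 to 32.1%). The shares ran opposite to the lengths of the lists, since nearly the same number of core peaks was set against lists of different length. A single peak of each list was found in 808 core regions. The other 6 held 2 peaks of 1 list, namely of wico in 2 regions, of star in 3 and of the wild type in 1.

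One pair of neighbouring members did not hold separate observations. The regions at positions 33724759 to 33725520 and 33725697 to 33725973 of HiC_scaffold_3 carried identical signals in every column, because each list reported 1 pair of replicate peaks in 2 pieces there. The gap between the pieces began and ended at the same base in each list. No other neighbouring pair of core regions shared a replicate peak.

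Overlap at the core regions was rarely marginal. Each pair of lists shared at least 100 bp in 813 of 814 regions. The exception, at positions 84821196 to 84822252 of HiC_scaffold_4, was also the only region with no base common to the 3 lists, and its smallest overlap was 21 bp. There a pair of star peaks was bridged by the wild-type peak, the percentiles were 24.8 in wico, 14.2 in star and 20.1 in the wild type, and the 6 replicate summits spread over 833 bp. The next smallest overlap, 136 bp, belonged to the second piece on HiC_scaffold_3. On the other side of the rule, 21 of 1449 regions held by 2 lists lay within 500 bp of a peak of the third list, and none within 100 bp. In 13 of these 21 the peak of the third list was itself in a core region. The nearest was at positions 37474516 to 37475187 of HiC_scaffold_1, where wico and star peaks with percentiles of 38.3 and 78.9 ended 143 bp from a wild-type peak with a percentile of 98.9 that belonged to the neighbouring core region. The second was at positions 126756122 to 126756518 of the same scaffold, 165 bp from a wild-type peak with a percentile of 53.6 that was in no core region, and its wico and star percentiles were 31.5 and 60.2.

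Core peaks stood in the upper part of each list. Their median percentile was 80.3 in wico (78.4 to 82.8), 67.2 in star (63.3 to 70.3) and 76.2 in the wild type (72.8 to 78.7). The peaks outside core regions had medians of 42.8, 35.7 and 39.4 in the same 3 lists. That group pools 2 kinds of region. Regions of 1 list had medians of 29.0 in wico, 29.3 in star and 19.6 in the wild type. Regions of 2 lists lay between these and the core regions. Their medians were 62.3 and 51.7 for wico and the wild type, 45.6 and 47.8 for wico and star, and 54.6 and 36.6 for star and the wild type. Since a peak had to pass the authors' filter in each genotype to be counted, higher ranks follow in part from the rule and were not tested. Core regions held 261 of the 361 wico peaks in the upper 10% of that list, or 72.3% (67.4 to 76.9%), 147 of 168 such star peaks, or 87.5% (81.5 to 92.1%), and 212 of 262 such wild-type peaks, or 80.9% (75.6 to 85.5%). Among the lower 10% of each list the same shares were 1.69%, 14.2% and 2.68%. Core membership was thus not confined to strong peaks, and percentiles in core regions ranged from 5.38 to 99.9 in wico, from 1.49 to 99.8 in star and from 3.73 to 99.9 in the wild type.

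Reproducibility between replicates was higher inside the core regions too. The irreproducible discovery rate (IDR) estimates how many of the peaks up to a given rank would fail to recur between replicates. A global IDR of at most 0.02 was met by 744 of 816 core peaks in wico, or 91.2% (89.0 to 93.0%), by 598 of 817 in star, or 73.2% (70.0 to 76.2%), and by 667 of 815 in the wild type, or 81.8% (79.0 to 84.4%). Outside the core regions the shares were 58.4% in wico, 37.1% in star and 45.6% in the wild type. The IDR was the authors' filter for the lists, so these shares describe the members and support nothing further.

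The strongest core region lay at positions 118663368 to 118664176 of HiC_scaffold_2. It had replicate signals of 22.5 and 19.7 in wico, 14.3 and 14.7 in star, and 12.6 and 18.8 in the wild type. It ranked 6 of 4276 peaks in wico, 5 of 2216 in star and 10 of 3134 in the wild type. The lowest of its 6 replicate percentiles was 99.6, and both wico columns lay above the 4 others by less than 1 point.

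The next strongest by mean percentile was at positions 18917402 to 18917936 of HiC_scaffold_7. Its replicate signals were 16.2 and 15.5 in wico, 12.3 and 15.1 in star, and 12.8 and 16.2 in the wild type, with ranks of 29, 7 and 15. It was followed by positions 104995909 to 104996813 of HiC_scaffold_4, with signals of 19.4 and 16.5 in wico, 14.1 and 14.7 in star, and 10.3 and 15.1 in the wild type. The 3 list percentiles of each of these regions lay within 1 point of each other.

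The strongest core regions of the other 4 scaffolds had mean percentiles of 98.7 to 99.4. Positions 3808058 to 3808498 of HiC_scaffold_5 had signals of 16.6 and 14.8 in wico, 12.6 and 14.3 in star, and 12.4 and 15.2 in the wild type. Positions 130966143 to 130966595 of HiC_scaffold_3 had 14.6 and 13.5 in wico, 9.02 and 12.4 in star, and 10.7 and 14.2 in the wild type. In both, the percentiles of the lists differed by less than 0.5 points.

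On HiC_scaffold_1, positions 134925731 to 134926566 had signals of 18.1 and 16.5 in wico, 8.04 and 11.4 in star, and 9.95 and 14.8 in the wild type. On HiC_scaffold_6, positions 7329193 to 7329905 had 21.5 and 17.1 in wico, 10.6 and 7.56 in star, and 14.3 and 16.1 in the wild type. The star percentile was the lowest of the 3 at both, at 97.8 and 96.5, and the replicate columns of star at the region on HiC_scaffold_6 stood at 98.8 and 87.3.

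**Figure D1:**
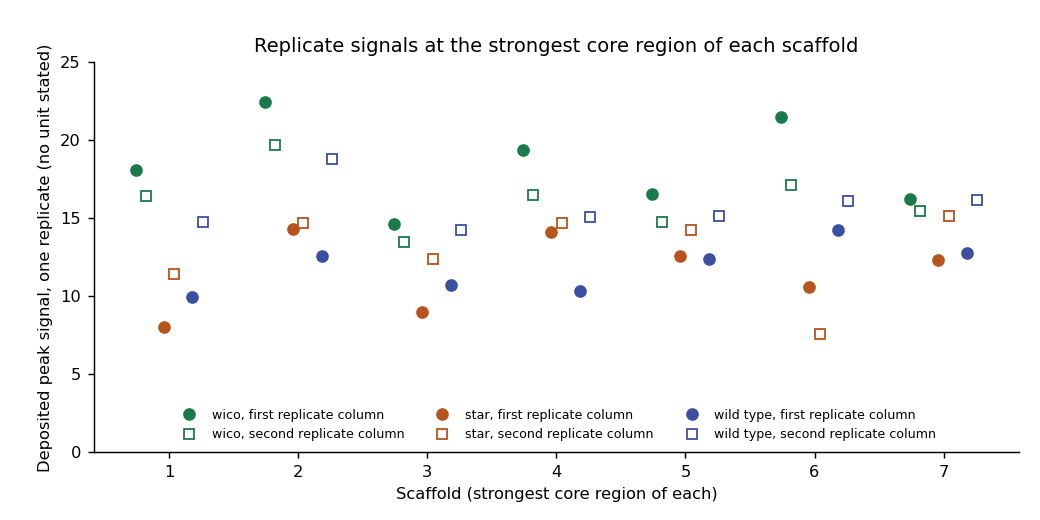
Deposited signal of 1 replicate (no unit stated) at the strongest core region of each of the 7 long scaffolds, with filled circles for the first and open squares for the second replicate column of wico (green), star (orange) and the wild type (blue). The wild-type circle lies below its square in each region, and levels of different lists share no stated scale, so heights compare regions and replicates inside a genotype.

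A group of 99 core regions was in the upper 10% of all 3 lists. These regions had at least 17.3 of summed signal in wico, 14.5 in star and 16.0 in the wild type, and they lay on each of the 7 scaffolds, from 5 on HiC_scaffold_6 to 21 on HiC_scaffold_4. A further 86 regions were in the upper 10% of wico and the wild type without star. The other 2-list combinations were rarer, with 11 regions for wico and star and 4 for star and the wild type. The upper 10% of a single list held 65 regions in wico, 33 in star and 23 in the wild type.

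At the other end, 56 core regions were in the lower 50% of all 3 lists. The weakest by mean percentile was at positions 5605447 to 5606056 of HiC_scaffold_7, with replicate signals of 3.48 and 4.11 in wico, 3.49 and 4.15 in star, and 3.72 and 3.65 in the wild type. It was followed by positions 16349568 to 16349928 of HiC_scaffold_3, with 3.69 and 3.67 in wico, 4.15 and 3.66 in star, and 3.43 and 4.25 in the wild type. Positions 128714433 to 128715374 of HiC_scaffold_5 came next, with 3.89 and 3.80 in wico, 3.53 and 4.32 in star, and 3.76 and 4.15 in the wild type. In all 3 regions the replicate percentiles of the genotypes overlapped.

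The order of the core regions by strength was much alike in wico and the wild type and less alike between star and either of them. Across the 814 regions, Spearman's rho of the percentiles was 0.46 between wico and star, 0.81 between wico and the wild type, and 0.51 between star and the wild type. These are descriptions across sites of the same 3 lists, and sites are not replicates. The median absolute difference of percentile was 16.5 points between wico and star (14.8 to 18.3), 7.51 points between wico and the wild type (6.34 to 8.51), and 14.8 points between star and the wild type (13.6 to 16.4). Percentiles more than 50 points apart were found at 87, 15 and 61 regions for these 3 pairs. Outside the core set, rho was 0.45 across the 208 regions with peaks of both wico and star. It was 0.63 across 1105 such regions for wico and the wild type, and 0.40 across 136 for star and the wild type. Wico and the wild type were thus the closest pair there too, so this feature is not particular to the core set.

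**Figure D2:**
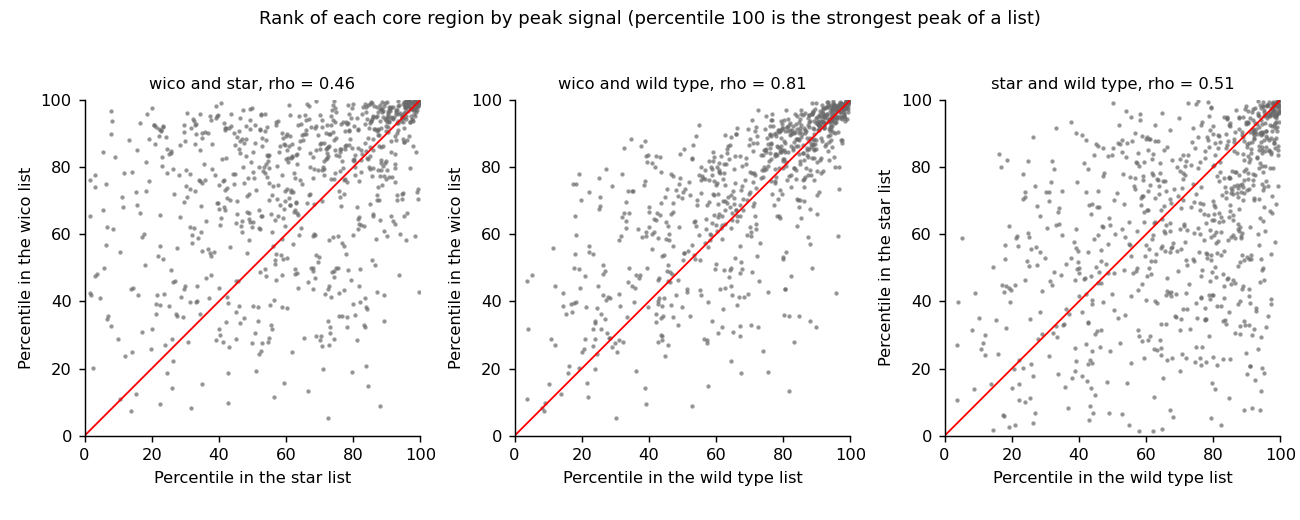
Percentile of each of the 814 core regions by summed peak signal in wico against star (left), wico against the wild type (middle) and star against the wild type (right), with the line of equal percentiles in red. Points keep close to the line between wico and the wild type (rho 0.81) and scatter widely where star is involved (rho 0.46 and 0.51), except in the upper right corner.

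Part of the scatter was present between replicates of a single genotype. At the core regions, rho between the 2 replicate columns was 0.82 in wico, 0.62 in star and 0.75 in the wild type. Between single columns of different genotypes it ranged from 0.37 to 0.43 for wico and star, from 0.66 to 0.78 for wico and the wild type, and from 0.43 to 0.44 for star and the wild type. Values for wico and the wild type thus reached the range seen between replicates, whereas each value involving star lay below the 0.62 of the star replicates. The 2 kinds of value are not on equal terms. Listed peaks had passed the authors' IDR filter, which keeps peaks whose replicates agree and can raise the replicate values. Ranks of different genotypes met no such filter, and the size of this effect was not tested. The median absolute difference between replicate columns was 7.03 points in wico, 14.3 points in star and 8.65 points in the wild type. Between single columns of different genotypes its median was 17.2 to 20.1 points for wico and star, 9.13 to 11.5 points for wico and the wild type, and 16.0 to 18.3 points for star and the wild type. The star replicates were the least alike, and the part of this in the low rank agreement of star with the other genotypes was not tested.

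**Figure D3:**
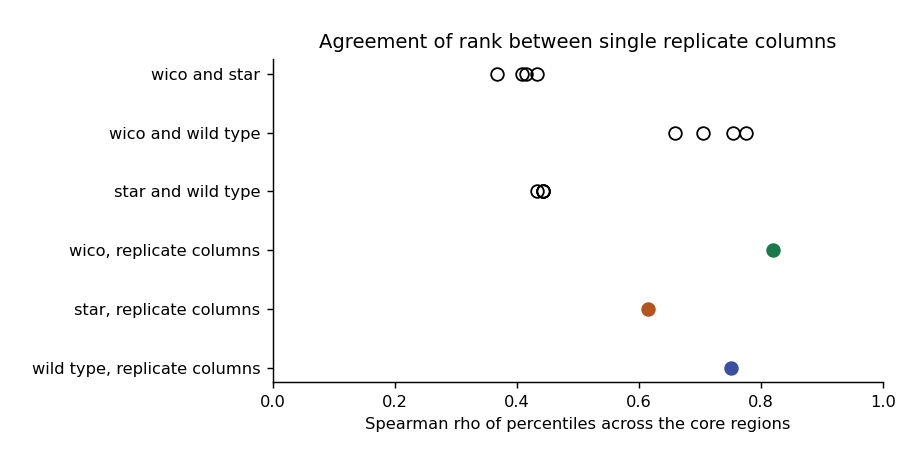
Spearman's rho of percentiles across the 814 core regions between single replicate columns, with open circles for the 4 column pairs of 2 genotypes and filled circles for the 2 columns of a genotype. The wico and wild-type pairs (0.66 to 0.78) sit beside the replicate values of those genotypes (0.82 and 0.75), and the pairs with star (0.37 to 0.44) sit below the star replicate value (0.62). Only the replicate pairs were filtered for agreement by IDR, which can raise their values.

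Agreement was tightest among strong regions. The range of the 3 percentiles of a region had a median of 24.0 points (22.0 to 25.7) over all core regions. It was 6.18 points (5.12 to 7.29) in the strongest 25% by mean percentile, 24.8 points in the next 25%, 36.3 points in the third and 34.3 points in the weakest 25%. A range near 0 is forced where the mean percentile comes close to 100, so the strongest group could vary less by construction. The range was at most 10 points in 191 regions and over 50 points in 115.

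The position of a genotype relative to the others depended on the list a percentile was taken from. With percentiles of the whole lists, wico was the highest of the 3 in 405 regions, star in 210 and the wild type in 199. With percentiles among the 814 core regions alone, which removes the different standing of core peaks in lists of different length, wico was the highest in 247, star in 337 and the wild type in 230. Star was also the lowest in 326 regions by that measure, against 252 for wico and 236 for the wild type, so star held both extremes more often. By that measure the lists have nearly the same set of ranks. These counts therefore largely restate the lower rho of star with the other lists and are not a further trait.

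A region was called different between 2 genotypes when both replicate percentiles of one lay above both of the other. With 2 replicates against 2 the smallest two-sided exact p is 0.333, so no test of a single region was made. Replicates had passed the IDR filter for agreement and pairs of genotypes had not, which can make such calls more frequent. Wico lay above star in 353 core regions, or 43.4%, and the same call was made in 38.3% of all regions with peaks of both lists, core regions included. Star lay above wico in 126 core regions, or 15.5%, against a background of 17.5%. Wico lay above the wild type in 268 core regions, or 32.9%, against a background of 33.3%, and below it in 103, or 12.7%, against 11.4%. Star lay above the wild type in 140 core regions, or 17.2%, against a background of 19.4%, and below it in 292, or 35.9%, against 32.4%. The backgrounds contain the core regions, so closeness to them carries little. Among the regions outside the core set that held peaks of both lists, wico lay above star in 38 of 208, or 18.3% (13.3 to 24.2%), and below it in 53, or 25.5% (19.7 to 32.0%). For wico and the wild type the shares outside the core set were 33.6% above and 10.5% below among 1105 regions. Star lay above the wild type in 44 of 136, or 32.4% (24.6 to 40.9%), and below it in 16, or 11.8% (6.88 to 18.4%). Star was thus less often the lower of a pair outside the core set than inside it, and core peaks had the lowest median percentile in the star list. The part of that list difference in these counts was not tested. With percentiles among core regions alone the counts became nearly even in the 2 directions, at 213 above and 222 below for wico against star, 171 and 166 for wico against the wild type, and 209 and 198 for star against the wild type.

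Single regions nevertheless stood far apart in rank in both replicates. They were picked for the size of that difference, so their values are a description. The largest departure was at positions 103908932 to 103909563 of HiC_scaffold_4, where star lay 87.6 points below the mean of the other two. The replicate signals there were 12.7 and 10.5 in wico, 3.92 and 3.67 in star, and 5.45 and 12.3 in the wild type, and the list percentiles were 96.8, 7.81 and 94.0. The 6 summits fell within 56 bp of each other.

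Star was nearly as far below at positions 75996866 to 75997484 of HiC_scaffold_4, with signals of 10.3 and 9.12 in wico, 3.39 and 4.20 in star, and 6.25 and 10.2 in the wild type. The percentiles were 93.7 in wico, 8.21 in star and 91.4 in the wild type. In both regions the star columns were below all 4 others.

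Star was farthest above at positions 54381684 to 54382224 of HiC_scaffold_6, with signals of 4.23 and 3.97 in wico, 5.58 and 7.52 in star, and 4.07 and 4.01 in the wild type. Its percentile was 83.8 in star, against 20.8 in wico and 16.3 in the wild type. The second such region, positions 79682342 to 79683283 of HiC_scaffold_4, had signals of 3.69 and 3.80 in wico, 6.66 and 7.34 in star, and 4.88 and 5.53 in the wild type. It was also the region where wico lay farthest below, with percentiles of 8.99 in wico, 88.0 in star and 52.9 in the wild type.

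Wico was farthest above at positions 76103116 to 76103515 of HiC_scaffold_4, with signals of 6.75 and 6.48 in wico, 3.75 and 3.74 in star, and 4.00 and 4.11 in the wild type. The second was at positions 127116539 to 127117307 of HiC_scaffold_1, with 6.96 and 7.78 in wico, 3.72 and 3.89 in star, and 3.57 and 6.13 in the wild type. The wild-type columns there disagreed, at percentiles of 9.06 and 58.1. The second region with wico far below was at positions 103882080 to 103882856 of HiC_scaffold_5, with 4.30 and 3.44 in wico, 5.29 and 5.40 in star, and 4.70 and 9.09 in the wild type.

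Departures of the wild type from both chimeras were smaller. It was farthest above at positions 125743012 to 125743400 of HiC_scaffold_3, with signals of 5.89 and 3.82 in wico, 3.38 and 4.43 in star, and 5.48 and 8.09 in the wild type, and at positions 110527846 to 110528348 of HiC_scaffold_1, with 4.30 and 4.34 in wico, 4.12 and 4.97 in star, and 6.20 and 7.91 in the wild type. These regions lay 51.8 and 48.8 points above the mean of the chimeras. It was farthest below at positions 110422891 to 110423288 of HiC_scaffold_4, with 6.84 and 8.68 in wico, 5.16 and 7.26 in star, and 4.32 and 4.69 in the wild type, and at positions 109924576 to 109925295 of HiC_scaffold_1, with 5.53 and 4.52 in wico, 4.31 and 5.83 in star, and 3.94 and 3.56 in the wild type. In all, 1 genotype lay apart from all 4 columns of the others in 487 core regions, or 59.8%. In 343 of them a single genotype stood apart, and in 144 one lay above and another below, so these 144 enter the following counts 2 times. The counts were 165 with wico above and 42 below, 78 with star above and 237 below, and 52 with the wild type above and 57 below. With percentiles among core regions alone the counts were 79 and 81 for wico, 149 and 133 for star, and 60 and 59 for the wild type. Only core regions hold peaks of all 3 lists, so the 59.8% and these counts have no background share beside them. How many such calls scatter between replicates alone would give was not tested, so the counts are a description.

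The merged core regions were narrow, with a median width of 528.5 bp (511 to 545) and 25% to 75% limits of 423 and 680 bp. Together they covered 467 kb, or 19.6% of the length of all merged regions. The stretch common to the 3 lists had a median of 336 bp (327 to 346) and made up a median of 67.8% of the region (66.4 to 69.0%). It covered at least 50% of the width in 689 regions, or 84.6%. The wild-type peak was the widest of the 3 in 393 regions, the wico peak in 281 and the star peak in 140.

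Over whole lists, core peaks were wider than other peaks in wico and the wild type. The median width was 437 bp in core regions (429 to 449) against 372 bp outside (366 to 378) in wico, 379 bp (367 to 393) against 367 bp (354 to 384) in star, and 461 bp (451 to 478) against 411 bp (403 to 420) in the wild type. Among peaks in the upper 20% of a list the medians in and outside core regions were 460 bp (443 to 476) and 402 bp (391 to 418) in wico. In the wild type they were 490 bp (473 to 518) and 432 bp (408 to 456). In star they were 412 bp (396 to 433) and 335 bp (310 to 403, 76 peaks), whose intervals overlap. In the lower 50% of the wico list the medians were 400.5 bp (361 to 427) in core regions and 357.5 bp (349 to 367) outside, and the intervals overlap. In the lower 50% of the wild-type list they were 413.5 bp (392 to 454) and 408 bp (395 to 419), with overlapping intervals too. In the lower 50% of the star list the order was the other way, with 348 bp in core regions (334 to 366) and 383 bp outside (366 to 403). Width carried little of the strength of a region, since rho between region width and mean percentile was 0.05 and rho between peak width and percentile was 0.22 in wico, 0.22 in star and 0.19 in the wild type.

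The widest core region spanned 1537 bp, at positions 92359705 to 92361241 of HiC_scaffold_3. Its signals were middling, at 5.73 and 3.98 in wico, 3.53 and 4.97 in star, and 5.26 and 5.81 in the wild type, and its common stretch was 530 bp. The narrowest spanned 232 bp, at positions 103658428 to 103658659 of HiC_scaffold_4. It had signals of 6.55 and 5.79 in wico, 7.25 and 6.05 in star, and 4.51 and 6.52 in the wild type, and 210 bp were common to all lists.

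Summits of different genotypes lay nearly as close together as summits of replicates. The median distance between the listed summits was 19 bp for wico and star (17 to 20), 16.5 bp for wico and the wild type (14 to 18), and 19 bp for star and the wild type (17 to 20). In 95.2% of the deposited peaks the listed summit was the mean of the replicate summits to within 1 bp, which narrows such distances. Between single replicate columns of different genotypes the medians were 24.0 to 25.5 bp for wico and star, 22.0 to 24.0 bp for wico and the wild type, and 23.0 to 26.0 bp for star and the wild type. Between the replicate columns of a genotype they were 21.0 bp in wico (19 to 23), 24.0 bp in star (22 to 26) and 21.0 bp in the wild type (20 to 23). Distances of at most 100 bp made up 93.5%, 91.8% and 92.1% of regions between the replicates of wico, star and the wild type, and 89.2 to 93.0% between single columns of different genotypes.

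**Figure D4:**
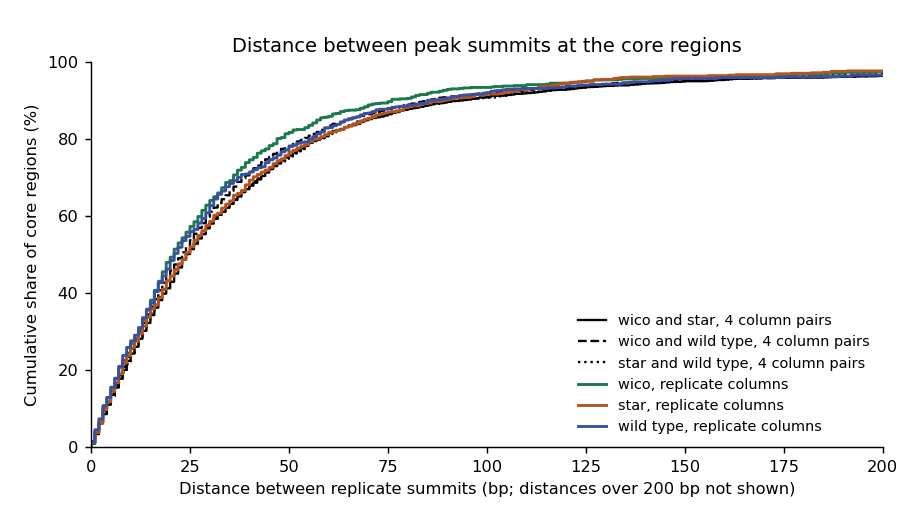
Cumulative share of core regions by distance between replicate summits, in black for the 4 column pairs of 2 genotypes and in colour for the 2 columns of wico (green), star (orange) and the wild type (blue). The 6 curves nearly coincide, with medians between 21 and 26 bp, and distances over 200 bp are not drawn.

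The 6 replicate summits of a region spread over a median of 64.0 bp (60 to 68). They fell within 50 bp in 285 regions and within 100 bp in 581, or 71.4%. The spread was smaller in stronger regions, with medians of 44.5 bp (40 to 48) in the strongest 25% by mean percentile and 87.0 bp (78 to 107) in the weakest 25%. The closest summits, 8 bp apart at most, were at positions 109926093 to 109926514 of HiC_scaffold_3. This region had signals of 14.2 and 10.9 in wico, 7.25 and 10.2 in star, and 9.87 and 14.1 in the wild type. The mean summit lay in the middle 50% of the region in 779 regions.

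Wide spreads of the summits included disagreement between replicates. Of the 233 regions with a spread over 100 bp, 143 had replicate summits of at least 1 genotype over 100 bp apart, and in 17 the replicates of each genotype agreed within 50 bp. In 11 of these 17, 1 genotype lay more than 50 bp from the other two, namely wico in 4, star in 4 and the wild type in 3. The largest such shift was at positions 130738939 to 130739983 of HiC_scaffold_1, a region chosen after its values were seen. Its summits spread over 425 bp, with the wico summits at 130739590 and 130739604, the star summits at 130739209 and 130739191, and the wild-type summits at 130739183 and 130739179. The signals there were 5.84 and 4.68 in wico, 5.36 and 5.70 in star, and 8.72 and 4.71 in the wild type. The farthest summits of all, 870 bp apart, were in a region of 1351 bp at positions 98539690 to 98541040 of HiC_scaffold_3. The wico summits were near its end and the star and wild-type summits nearer its start, but the star replicates were themselves 216 bp apart.

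Most core regions had no core neighbour within 10 kb. The median distance from a core region to the nearest other core region was 191 kb (164 to 238 kb), and 69 of 814, or 8.48% (6.66 to 10.6%), had a core neighbour within 10 kb. These 69 formed 33 pairs and 1 run of 3, and the other 745 were single. Regions outside the core set lay farther from the nearest core region, at a median of 305602 bp (281908 to 329032). Of them 4.88% (4.26 to 5.57%) had a core region within 10 kb. Merged regions of any class were nearer to core regions, since by construction there are more of them. The nearest merged region of any class lay at a median of 23481 bp from a core region (20479 to 27447), against 34713.5 bp from a region outside the core set (32308.5 to 37397.5). Regions held by wico and the wild type alone lay about as near, at 25151 bp (22767.5 to 29415), with 64.1% within 50 kb. Within 10 kb the shares were 29.4% for core regions (26.3 to 32.6%) and 28.0% for the others (26.6 to 29.4%), whose intervals overlap. Within 50 kb they were 66.3% and 57.8%.

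The run of 3 was at positions 81011048 to 81018340 of HiC_scaffold_4 and held the closest pair of core regions with separate peaks, whose midpoints were 649.5 bp apart. The first of the pair, at positions 81011048 to 81011524, had signals of 11.7 and 9.92 in wico, 6.47 and 9.35 in star, and 5.04 and 7.91 in the wild type. The second, at positions 81011706 to 81012165, had 7.46 and 5.93 in wico, 6.47 and 6.26 in star, and 5.46 and 5.45 in the wild type. The wild-type percentile was the lowest of the 3 at both, at 76.6 and 59.4. Over all neighbours within 10 kb, the median difference in mean percentile was 15.6 points (10.6 to 21.7, 35 pairs), against 18.9 points (17.5 to 20.7, 772 pairs) for neighbours farther apart, and the intervals overlap. Members of runs and single regions had median mean percentiles of 70.2 and 70.8.

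The densest window of 100 kb held 5 core regions, between positions 131954146 and 132045898 of HiC_scaffold_3. They differed in strength, with mean percentiles of 36.7, 74.2, 43.1, 96.3 and 61.0 from the first to the last along the scaffold. The longest stretch without a core region ran over 27464 kb, from position 81257388 to 108721229 of HiC_scaffold_2. It still held 29 merged regions of other classes.

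Core regions were concentrated toward the ends of the scaffolds. Scaffold lengths were approximated by the end of the last listed peak. The outer 10% at each end held 322 of 814 core regions, or 39.6% (36.2 to 43.0%), against 1426 of 4259 regions outside the core set, or 33.5% (32.1 to 34.9%). With the outer 5% the shares were 21.9% (19.1 to 24.9%) and 19.96% (18.8 to 21.2%), whose intervals overlap, and with the outer 20% they were 63.1% (59.7 to 66.5%) and 56.3% (54.8 to 57.8%). In the outer 10% the share was 34.6% (32.2 to 37.2%) for regions of 2 lists and 32.9% (31.1 to 34.7%) for regions of 1 list. For regions of 2 lists the shares were 21.8% (19.7 to 24.0%) in the outer 5% and 59.1% (56.6 to 61.7%) in the outer 20%. Each of these intervals of the regions of 2 lists overlaps that of the core regions. The density of core regions was 2.10 per Mb in the last of 10 equal bins and 0.247 per Mb in the fifth, a ratio of 8.48. For regions of 2 lists the ratio of the densest to the sparsest bin was 4.83, and for regions of 1 list it was 3.60. No test was made of these ratios, because regions of a scaffold are not replicates.

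The share of merged regions that were core was lower in the interior as well. Between 20 and 60% of the scaffold length it was 136 of 1227, or 11.1% (9.38 to 12.98%), and in the rest it was 678 of 3846, or 17.6% (16.4 to 18.9%). This interior held 16.7% of core regions (14.2 to 19.5%) and 22.8% of regions of 2 lists (20.6 to 25.0%), and these intervals do not overlap. The limits of 20 and 60% were chosen after the 10 bins had been seen. Peaks in that interior also had lower median percentiles. They were 43.8 (40.6 to 46.8) in wico, 41.0 (37.1 to 47.1) in star and 44.2 (39.2 to 49.6) in the wild type. In the rest they were 52.5 (50.7 to 54.3), 52.3 (49.9 to 54.7) and 51.1 (49.3 to 53.3) in the same order. The wild-type intervals overlap. The part of this rank difference in the lower core share was not tested. Among core regions the median mean percentile was 72.0 in the outer 10% (69.9 to 74.6) and 69.8 in the inner 80% (66.6 to 72.4). These intervals overlap. By bin it ran from 62.4 to 67.4 between 20 and 60% of the length, and from 68.5 to 73.0 elsewhere. The intervals of the lowest bin (58.4 to 71.7) and the highest (69.7 to 75.8) overlap.

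**Figure D5:**
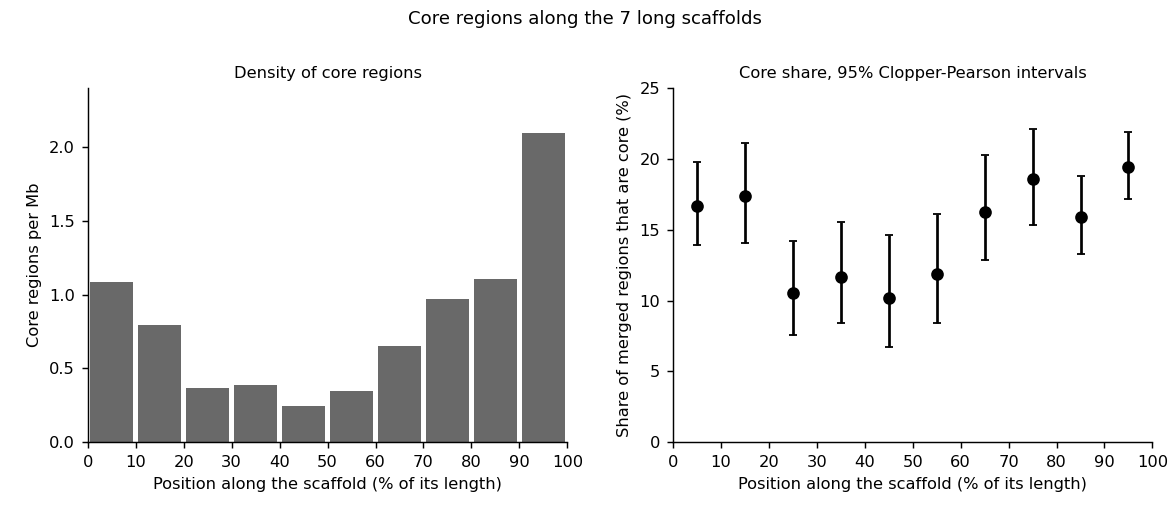
Core regions per Mb (left, bars) and the share of all merged regions that are core with 95% Clopper-Pearson intervals (right, points) in 10 equal bins along the 7 long scaffolds, pooled. Density falls from 1.09 per Mb in the first bin to 0.247 in the fifth and reaches 2.10 in the last, and the core share is between 10.2 and 11.9% from 20 to 60% of the length and between 15.9 and 19.5% elsewhere.

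The scaffolds differed in density and in the end that was enriched. HiC_scaffold_4 held 163 core regions, or 1.45 per Mb, HiC_scaffold_3 held 147, or 1.06 per Mb, and HiC_scaffold_1 held 147, or 1.02 per Mb. HiC_scaffold_5 held 105, or 0.800 per Mb, HiC_scaffold_2 held 108, or 0.570 per Mb, HiC_scaffold_7 held 85, or 0.540 per Mb, and HiC_scaffold_6 held 59, or 0.427 per Mb. All merged regions ran in nearly the same order, so these densities are not particular to the core set. They stood at 8.43, 6.02 and 5.22 per Mb on scaffolds 4, 3 and 1, and at 4.98, 3.88, 4.17 and 3.59 on scaffolds 5, 2, 7 and 6. On scaffolds 1 to 4 the last 10% held 38, 46, 49 and 48 core regions and the first 10% held 10, 13, 12 and 5. On scaffolds 5, 6 and 7 the first 10% held more, with 32, 19 and 19 regions, than the last, with 7, 11 and 13. Over the 7 scaffolds together the first and last 10% held 110 and 212 core regions. The same parts held 659 and 1089 of all merged regions. The core share of merged regions ran from 11.9% on HiC_scaffold_6 (9.18 to 15.1%) to 19.5% on HiC_scaffold_1 (16.7 to 22.5%). On each of the 7 scaffolds the order of the core regions was closer between wico and the wild type, with rho from 0.75 to 0.88, than between star and the wild type, with rho from 0.44 to 0.64, or between wico and star, with rho from 0.25 to 0.55.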

How the data were processed

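The series holds 7 ChIP-seq libraries, and 3 peak lists, 1 per genotype, were used. Lists were assigned by the library numbers in their names, which match the labels. Per the submitters' processing notes, FastQC, MultiQC, Bowtie2 2.4.2, MACS2 and bedtools were used. The build is not given in the sources used here, nor are program settings. Per the labels, chromatin was cross-linked with disuccinimidyl glutarate (2.5 mM, 1 h) and formaldehyde (1%, 5 min). The columns follow the output of the idr program, and the file names state that input was removed. The deposited signal of a peak equals the sum of its 2 replicate signals (within 0.0001, in 100% of peaks). The deposited score and the deposited −log10 global IDR, capped at 5, come from the authors' replicate comparison; the largest IDR was 0.1001 after conversion. Other deposited columns give positions and summits in bp, counted from 1 in the text.

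Regions were merged in Python 3.11.15 (numpy 2.4.6, pandas 2.3.3, scipy 1.17.1, matplotlib 3.10.9). bedtools 2.31.1 gave 814 core regions, of which 0 differed. On simulated lists 800 of 800 placed core regions were recovered. Their peaks overlapped by construction and had no close neighbours, so this checks the merging code alone. Where a list had 2 peaks in a region, the stronger stood for it. Summits outside their listed peak were left out of distances between lists (2 to 4 regions a pair). Median intervals come from order statistics. Named regions followed a fixed rule: the strongest of each scaffold, extremes of rank, width, summits, overlap and spacing. The members, this rule and the alternatives were chosen with earlier results of these data known. Nothing says whether the biological replicates came from separate plants.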

Additional observations from a re-analysis of the deposited data

Results flagged for a closer look

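At 2 named core regions both wico columns and both star columns lay on opposite sides of both wild-type columns. Such an order was not rare, since 1 genotype lay above and another below all other columns in 144 core regions, or 17.7%. That count takes in any order of the genotypes. At positions 75996866 to 75997484 of HiC_scaffold_4 the percentiles were 93.7 in wico, 8.21 in star and 91.4 in the wild type, a wico minus star difference of 85.5 points. At positions 79682342 to 79683283 of HiC_scaffold_4 they were 8.99 in wico, 88.0 in star and 52.9 in the wild type, a wico minus star difference of -79.0 points. The difference between the chimeras was not tested, since 2 columns against 2 cannot reach a small p. Both regions were named for extreme ranks, and the wico and star values are set against the same wild-type columns.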

How the results depend on the processing

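No paired analysis was possible because no test was made and no column is tied to a numbered replicate. Membership could not be recomputed without a replicate. Of 100 recomputed values for 23 results, 53 kept their place within the interval, replicate spread or 1.5 times the count. Percentiles among core regions leave rho unchanged by construction, and other limits of distance or position measure another quantity. The 53 is therefore a tally and not a measure of robustness. Alternatives with percentiles among core regions, 5 points of distance, fewer scaffolds or the upper 50% for width, spacing and position were chosen after seeing the data. The core count was 500 at a global IDR of at most 0.02 and 443 with the upper 50% of each list, where fewer peaks enter by construction. Elsewhere it ranged from 650 with lists of equal length to 940 with all scaffolds, and it was 813 with peaks up to 500 bp apart merged.

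The shares of wico, star and wild-type peaks in core regions were 19.9%, 41.3% and 27.3% with reciprocal overlap of at least 50%, and 20.6%, 52.3% and 33.0% at the stricter IDR. With a single replicate column, rho was 0.37 to 0.43 for wico and star, 0.70 to 0.75 for wico and the wild type, and 0.43 to 0.44 for star and the wild type. Ranked by IDR, rho was 0.40, 0.75 and 0.49 for these pairs, and in the upper 50% of core regions it was 0.31, 0.74 and 0.34, where the range of ranks is narrower by construction. For star and the wild type it was also 0.53 with reciprocal overlap and 0.50 at the stricter IDR. The order of the pairs changed in none of these settings.

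With percentiles among core regions, wico lay above star in 213 regions and below it in 222, and above the wild type in 171 and below it in 166. With at least 5 points between columns, wico lay above the wild type in 140 and below it in 60, and star lay above the wild type in 93. The median width was 336 bp for the common part. Summit distances for wico and star, wico and the wild type, and star and the wild type were 29.8, 26.5 and 36.8 bp between peak centres and 16, 12 and 14 bp in the upper 50% of core regions. With a single replicate column they were 24 to 25.5, 23 to 24 and 23 to 25 bp. In the upper 50% of core regions the nearest core region was 452 kb away and 4.42% had a core neighbour within 10 kb, with fewer regions by construction. Neighbours within 5 kb were found for 5.90% and within 50 kb for 26.5%. The outer 5% and 20% at each end held 21.9% and 63.1% of core regions, against 19.96% and 56.3% of regions outside the core set. For regions of 2 lists these shares were 21.8% and 59.1%. Where no construction is named, the cause was not tested. The unknown depth limits what a missing peak can show.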
